A study of Mus musculus with 12 samples.

Results

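The estrogen receptor genes *Esr1* and *Esr2*, the estrogen-related receptor genes *Esrra*, *Esrrb* and *Esrrg*, and the estrogen-regulated genes *Pgr* and *Greb1* were examined in RNA-seq of the mouse cochlea at postnatal day 6. These 7 genes were taken by symbol from the 28686 symbols of the count table, and all 7 passed the filter on low counts. The set was put together because the mutants carry CreER, a Cre recombinase fused to a part of an estrogen receptor, and it was selected on the count of *Esr1* in these same libraries, which was already known to be higher in the mutants. The values of *Esr1* in the mutants and controls are therefore given as a description, without a p-value for the difference.

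The mutants were 6 Sox2CreER/+ Jag1fl/fl mice and the controls were 6 Sox2+/+ littermates, which had either Jag1+/fl or Jag1fl/fl and no CreER. Pups of both genotypes received tamoxifen at postnatal days 0 and 1, so that every library comes from a tamoxifen-exposed animal. The labels give a C57BL/6;129SV strain, whereas the paper names C57BL/6 for the CreER line and FVB/n for the *Jag1* flox line. The difference is not explained in the sources used here. The cochlear tissue of each mouse gave 1 library, sequenced to between 28498549 and 36134983 counted reads. CreER is driven from the *Sox2* locus, which is active in supporting cells, and it deletes *Jag1*, the Notch ligand of these cells. Every mutant library had CreER in 1 *Sox2* allele and the *Jag1* deletion and no control library had either, so that their contributions cannot be told apart. Which of the *Jag1* genotypes each control had is not given in the sources used here.

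Estrogen receptors are transcription factors of the nuclear receptor family that bind estradiol through a ligand-binding domain and DNA through paired zinc fingers. The estrogen-related receptors share this build but bind no estradiol, and they are best known for control of mitochondrial genes. *Esrrb* is needed for the development of the stria vascularis, the epithelium that makes the potassium-rich endolymph of the cochlea, and *ESRRB* mutations cause deafness. In the ERT2 form of CreER the Cre enzyme is joined to the ligand-binding domain of the human estrogen receptor alpha, altered so that it responds to a tamoxifen metabolite.

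The stretch of coding sequence that ends the first zinc finger and opens the DNA-reading helix is shown for the 6 receptors, because it separates the estrogen, estrogen-related and progesterone receptors that the values below compare. It is read 5′ to 3′ on the coding strand from the GRCm38 genome, and capitals mark the 3 codons of the P-box, the residues that choose which DNA site is read. *Greb1* encodes no receptor and has no such stretch.
Esr1: tgcGAAGGCtgcaagGCTttctttaagaga
Esr2: tgtGAAGGAtgtaagGCCttttttaaaaga
Esrra: tgtGAGGCCtgcaaaGCCttcttcaagagg
Esrrb: tgcGAGGCTtgcaagGCGttcttcaagaga
Esrrg: tgtGAAGCCtgcaagGCAttcttcaagagg
Pgr: tgtGGGAGCtgcaagGTCttctttaagagg

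The *Esr1* stretch lies at chr10:4746768-4746797 on the plus strand and the *Esr2* stretch at chr12:76165459-76165488 on the minus strand. That of *Esrra* lies at chr19:6920073-6920102 (minus), that of *Esrrb* at chr12:86470516-86470545 (plus), that of *Esrrg* at chr1:188043710-188043739 (plus) and that of *Pgr* at chr9:8903708-8903737 (plus). All are in coding exons. Against *Esr1*, 24 of 30 bases were the same in *Esr2*, 25 in *Esrrb*, 25 in *Esrrg*, 23 in *Esrra* and 23 in *Pgr*. Despite this likeness, no 100-base window of the annotated transcripts of *Esr1*, *Esr2*, *Esrra*, *Esrrb*, *Esrrg* or *Pgr* was identical to a window of another mouse gene, 100 bases being the read length. In *Greb1*, 351 of 9992 such windows (3.51%) also occurred in Gm48140, an antisense gene that shares 736 exon bases with it. *Esrra* shares 73 exon bases with *Trmt112* on the opposite strand. The strand setting of the counting is not given in the sources used here, so reads from these overlaps cannot be told apart.

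*Esr1* (chromosome 10, bases 4611593 to 5005614, plus strand), which encodes estrogen receptor alpha, had few reads in every library. In the controls it had from 26 to 62 reads, or a lowest value of 0.752, a median of 1.37 and a highest value of 1.996 reads per 1000000 counted reads (CPM, scaled by the trimmed mean of M-values). In the mutants it had from 101 to 163 reads, with a lowest value of 3.03 CPM, a median of 3.42 and a highest of 4.76. The lowest mutant lay above the highest control, so the genotypes did not overlap. The same lack of overlap in this direction was found for 0.618% of the 18459 genes tested. Mean *Esr1* was 1.41 ± 0.459 CPM for controls and 3.57 ± 0.632 CPM for mutants (± SD, 6 libraries per genotype), a difference of 2.16 CPM. The fitted log2 fold change was 1.34, which is 2.53-fold, with a standard error of 0.21 and a 95% interval from 0.89 to 1.78. The interval does not allow for the selection of *Esr1* on this difference, so it describes the fit and is no test. With marker scores of neurons and Schwann cells in the model it was 1.17 (standard error 0.29), and with the neuron score alone 1.04 (standard error 0.25). Of the other 6 genes, 0 were called by edgeR's quasi-likelihood test at an adjusted p under 0.05, against 0.190% of all genes tested. 1 of them, *Esrrg*, had an unadjusted p under 0.05, against 10.6% of all genes tested. DESeq2 and limma-voom called 0 of these 6 genes.

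**Figure D1:**
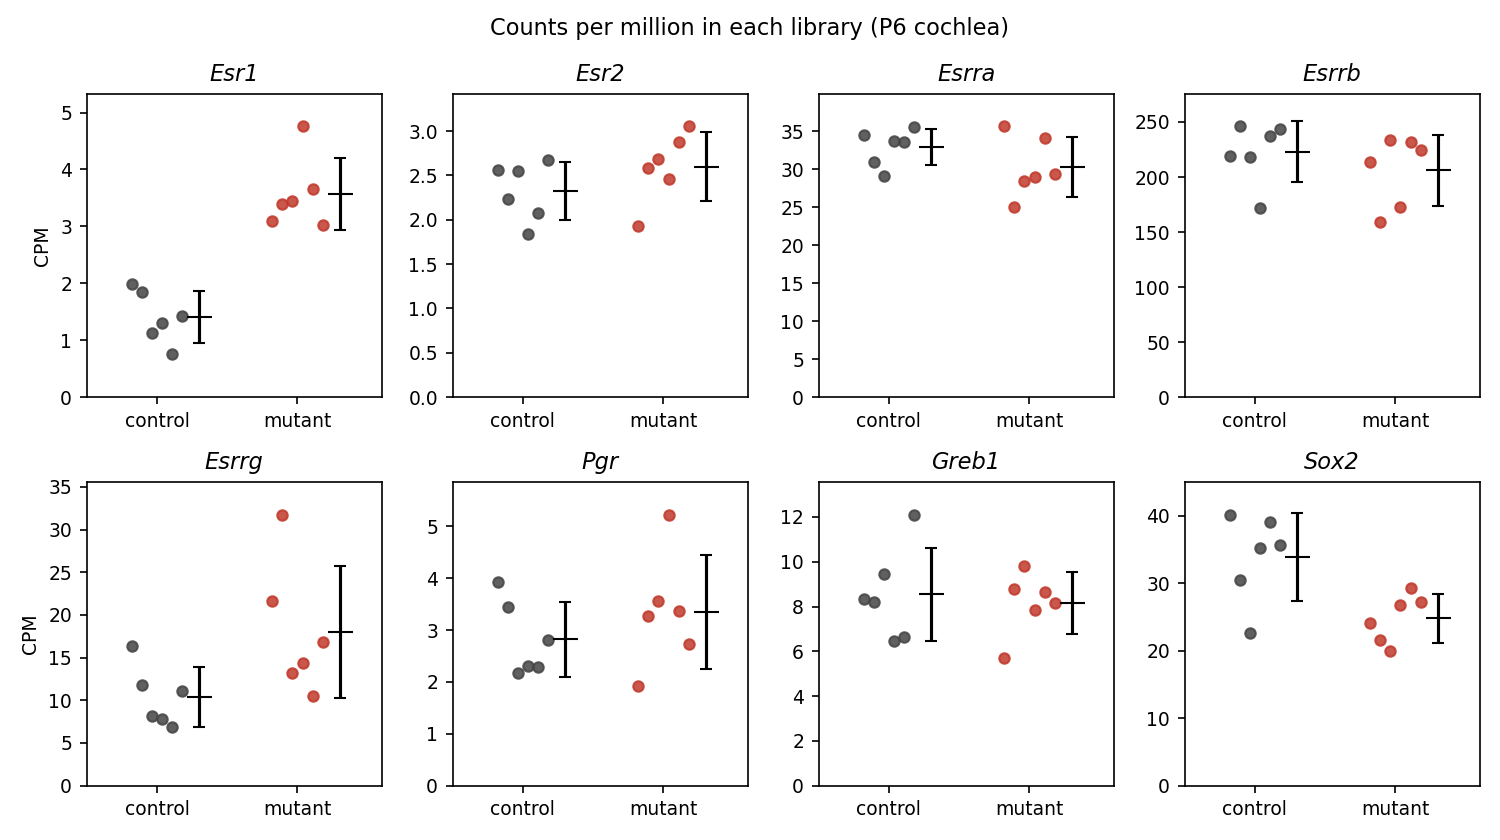
CPM (vertical axes, from 0) of the 7 genes and *Sox2* in 6 control libraries (grey) and 6 mutant libraries (red), with the mean and SD as bars. *Esr1* is the only one of these 8 genes whose groups do not overlap, with controls up to 1.996 CPM and mutants from 3.03 CPM.

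The deposited table holds a single count for each gene and library, so reads of the CreER transgene's receptor part that were assigned to mouse *Esr1* and reads of *Esr1* itself cannot be told apart. The sequence of the transgene was not analysed here. In mouse *Esr1*, 1152 of the 1797 coding bases follow the stretch shown above, within 13661 bases of merged exons. They hold the rest of the DNA-binding part with the other zinc finger, and then the hinge and the ligand-binding domain. Counts by position along the gene were not analysed here. In bulk tissue, a change in the number of cells that hold *Esr1* and a change in its RNA per cell cannot be told apart either.

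*Sox2*, whose locus holds CreER, was compared with *Esr1* within the mutants. Its mean level went from 33.9 ± 6.49 CPM to 24.8 ± 3.60 CPM (± SD, 6 libraries per genotype) from controls to mutants. This fold change, -0.45 on the log2 scale with a standard error of 0.13, was not called by edgeR (adjusted p = 0.143). Among the 6 mutants *Esr1* and *Sox2* had a Pearson r of 0.239 (exact permutation p = 0.699, adjusted p = 0.931 over 28 relations) and a Spearman rho of 0.0857 (exact permutation p = 0.919, adjusted p = 0.953). Without the 2 mutants farthest from the median of *Sox2*, r was 0.285. Mutant 4 had the highest *Esr1* level, 4.76 CPM, at 26.8 CPM of *Sox2*. The highest *Sox2* level of the mutants, 29.4 CPM, was in mutant 5, whose 3.66 CPM of *Esr1* lay below only mutant 4. *Jag1* fell from 101.9 CPM to 36.4 CPM (log2 fold change -1.48, standard error 0.13, edgeR adjusted p = 0.000258).

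Genes beside *Esr1* on chromosome 10 were examined as its chromosomal setting. None of the 3 nearest tested genes on either side was called by edgeR. *Syne1*, which encodes a nuclear envelope protein and lies 15.3 kb beyond *Esr1*, differed by 0.19 on the log2 scale (standard error 0.09, adjusted p = 0.530). *Ccdc170*, 49.4 kb before it, averaged 0.354 CPM among controls against 0.298 CPM among mutants, a log2 change of -0.26 (standard error 0.34, adjusted p = 0.895). *Armt1* had the lowest p of the 6, at a log2 change of 0.16 (standard error 0.07, adjusted p = 0.395), and the other 3 genes, *Rmnd1*, *Myct1* and *Fbxo5*, had log2 fold changes from -0.07 to 0.10.

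*Esr2* encodes estrogen receptor beta, the other receptor that binds estradiol. Its lowest, median and highest values were 1.84, 2.39 and 2.67 CPM in controls and 1.93, 2.63 and 3.06 CPM in mutants, and the genotypes overlapped. The log2 fold change of *Esr2* was 0.16 (standard error 0.14, 95% interval -0.14 to 0.46, edgeR adjusted p = 0.808). The interval holds both signs.

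*Pgr*, the progesterone receptor gene, and *Greb1*, a cofactor of estrogen receptor alpha, are both induced by estrogen in the uterus and in breast cancer cells. *Pgr* ranged from 2.17 to 3.92 CPM in controls (median 2.56) and from 1.93 to 5.23 CPM in mutants (median 3.32), so that the mutants held both the lowest and the highest library. Its log2 fold change was 0.25 (standard error 0.22, 95% interval -0.22 to 0.72, edgeR adjusted p = 0.811). *Greb1* ranged from 6.48 to 12.1 CPM in controls (median 8.28) and from 5.70 to 9.80 CPM in mutants (median 8.41), with the mutants mostly inside the control range. Its log2 fold change was -0.07 (standard error 0.16, 95% interval -0.41 to 0.27, edgeR adjusted p = 0.951), and its sign turned when control 6 (0.06) or mutant 1 (0.02) was left out. Neither gene was called, and the intervals leave room for changes in both directions.

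*Esr1* and *Pgr* tended to follow each other across the libraries of each genotype. In the controls r was 0.848 (exact permutation p = 0.0292, adjusted p = 0.171) and rho was 0.943 (exact permutation p = 0.0167, adjusted p = 0.233). In the mutants r was 0.883 (exact permutation p = 0.025, adjusted p = 0.171) and rho was 0.886 (exact permutation p = 0.0333, adjusted p = 0.272). Mutant 4 had the highest value of both genes, 4.76 CPM of *Esr1* and 5.23 CPM of *Pgr*, and control 1 the highest control value of both, 1.996 and 3.92 CPM. The lowest values lay in different libraries. In the controls these were control 5 for *Esr1* (0.752 CPM) and control 3 for *Pgr* (2.17 CPM). In the mutants they were mutant 6 for *Esr1* (3.03 CPM) and mutant 1 for *Pgr* (1.93 CPM). Without the 2 libraries farthest from the median of *Pgr*, r was 0.865 in the mutants and 0.52 in the controls. None of the 28 relations computed passed the adjustment. Those of *Esr1* with the other genes of the set, and those of *Pgr* and *Esrrg* with the neuron score, were added after values had been seen. Among them, *Esr1* and *Esrrg* had r = 0.897 in the controls (exact permutation p = 0.0181, adjusted p = 0.171). In the mutants their r was -0.362 (exact permutation p = 0.479, adjusted p = 0.856).

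*Esrrb* was the most abundant of the 7 genes. It had a lowest, median and highest value of 172, 228 and 246 CPM in controls and of 159, 219 and 234 CPM in mutants. Control 4, mutant 2 and mutant 4 were low, at 172, 159 and 173 CPM, and the other libraries lay at 214 CPM or above. The log2 fold change was -0.11 (standard error 0.11, 95% interval -0.35 to 0.12, edgeR adjusted p = 0.828). Over the 12 libraries, after the mean of each genotype was removed, the 5 genes that followed *Esrrb* most closely among 14192 were *Aif1l* (r = 0.932), *Fst* (0.923), *Atp2c2* (0.894), *Cds1* (0.873) and *Kcne1* (0.870). *Kcne1*, a potassium channel subunit of strial marginal cells, is in the marker list of those cells used here. The list's summed level was 2045 to 2902 CPM in controls and 2395 to 2970 CPM in mutants, and 0 of its 6 markers was called by edgeR or had an unadjusted p under 0.05.

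*Esrra*, a regulator of mitochondrial genes in many tissues, had a lowest, median and highest value of 29.2, 33.6 and 35.6 CPM in controls and of 25.03, 29.1 and 35.7 CPM in mutants. 3 mutants lay below the lowest control and 1 above the highest. The log2 fold change of *Esrra* was -0.12 (standard error 0.09, 95% interval -0.31 to 0.06, edgeR adjusted p = 0.725).

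*Esrrg*, a receptor abundant in neurons, heart and other tissues of high energy use, had the largest fold change after *Esr1*. It ranged from 6.88 to 16.3 CPM in controls (median 9.67) and from 10.5 to 31.8 CPM in mutants (median 15.6). All 6 mutants lay above the control median, and 3 of them, mutants 1, 2 and 6, lay above the highest control. The log2 fold change of *Esrrg* was 0.80 (standard error 0.28, 95% interval 0.20 to 1.40), with an edgeR adjusted p of 0.260, so it was not called. DESeq2 gave an adjusted p of 0.0591.

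Neuron and Schwann cell markers had higher values in the mutants too. Of 14 neuron markers 13 were higher in the mutants, with a summed level of 151 to 301 CPM in controls and 186 to 1387 CPM in mutants. All 12 Schwann cell markers were higher, with a summed level of 574 to 1620 CPM in controls and 1382 to 6524 CPM in mutants. No marker of either list was at 0 or was called by edgeR, and 12 and 11 of them had an unadjusted p under 0.05, against 10.6% of all genes tested.

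The scores entered in the model are the mean log2 CPM of the markers in each list. They differ between the genotypes: the neuron score was 1.75 to 3.60 in controls and 2.77 to 6.04 in mutants. The Schwann cell score was 4.40 to 6.14 in controls and 6.04 to 7.88 in mutants. In a fit with these scores, genotype and score can therefore not be fully told apart. For *Esr1*, whose values with these scores are given above, the log2 fold change without control 1 and mutant 4, the libraries of highest neuron score in each genotype, was 1.36 (standard error 0.20). *Esr1* and the neuron score had r = 0.663 in controls and 0.449 in mutants. With the Schwann cell score r was 0.302 and -0.663, and with a supporting cell score 0.314 and 0.48. With a score of fibroblasts and mesenchyme it was -0.594 and -0.0406. The lowest exact permutation adjusted p of these was 0.583. For *Esrrg* the neuron and Schwann cell scores together turned the log2 fold change to -0.28 (standard error 0.24, edgeR adjusted p = 1.0), the neuron score alone gave 0.15 (standard error 0.31), and omission of control 1 and mutant 4 gave 1.03 (standard error 0.28, edgeR adjusted p = 0.140). In the controls *Esrrg* and the neuron score had r = 0.864 (exact permutation p = 0.0306, adjusted p = 0.171) and rho = 0.829 (exact permutation p = 0.0583, adjusted p = 0.272), and r was 0.757 without the 2 libraries farthest from the median score. In the mutants r was 0.487 (exact permutation p = 0.322, adjusted p = 0.856), rho was 0.657 (exact permutation p = 0.175, adjusted p = 0.544), and r was 0.918 without the 2 farthest libraries. *Pgr* followed the neuron score in the controls (r = 0.934, exact permutation p = 0.00556, adjusted p = 0.156; rho = 0.829, adjusted p = 0.272; r without 2 libraries = 0.973) and had r = 0.267 in the mutants (exact permutation p = 0.651, adjusted p = 0.931; rho = 0.0857, adjusted p = 0.953; r without 2 libraries = -0.551), and the difference between the genotypes was not tested.

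**Figure D2:**
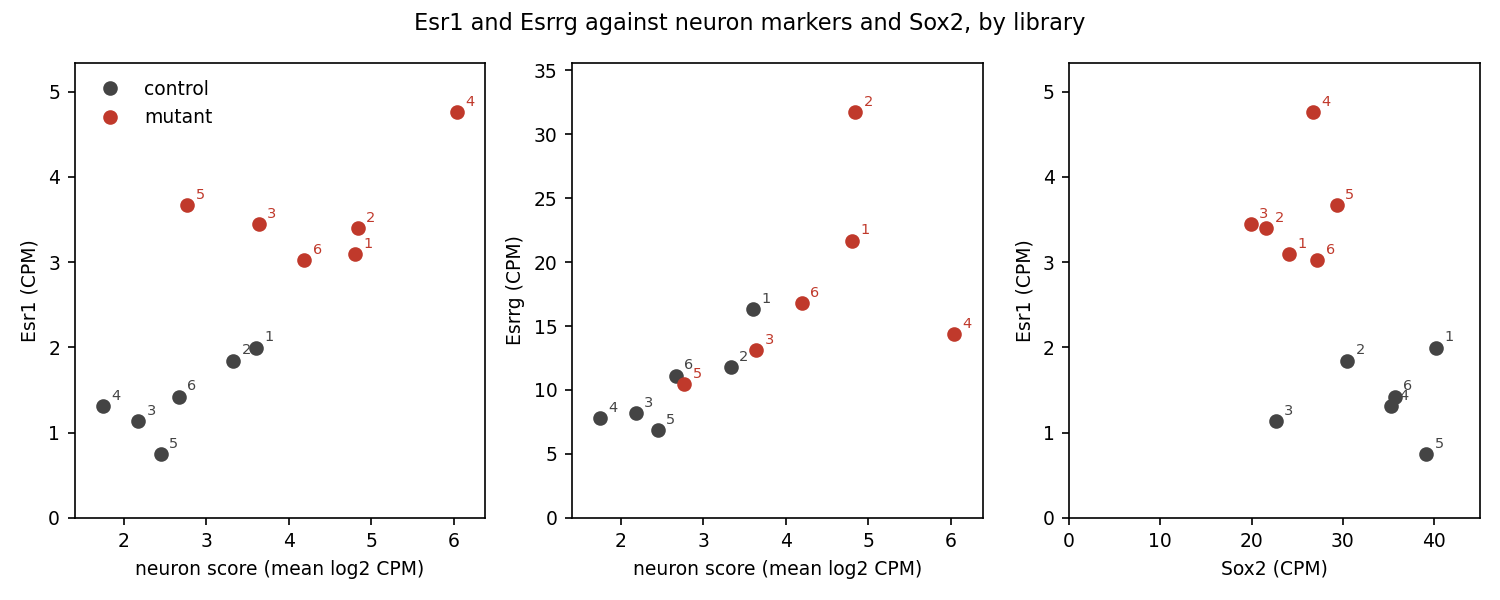
*Esr1* (left) and *Esrrg* (middle) in CPM against the neuron score, the mean log2 CPM of 14 neuron markers, and *Esr1* against *Sox2* in CPM (right), with 1 point for each of 6 controls (grey) and 6 mutants (red) and replicate numbers beside the points. Mutant 4 has the highest neuron score, 6.04, with 4.76 CPM of *Esr1*, and mutant 5 the lowest mutant score, 2.77, with 3.66 CPM of *Esr1* and 10.5 CPM of *Esrrg*.

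**Figure D3:**
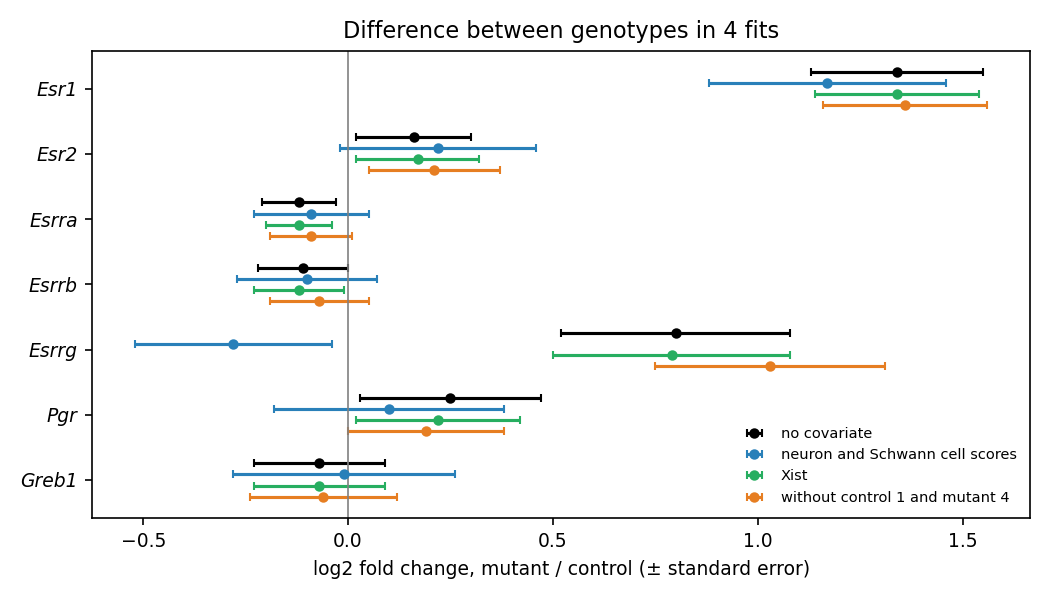
Log2 fold change of mutants against controls (horizontal axis, ± standard error) of the 7 genes in the fit without a covariate (black), with neuron and Schwann cell scores (blue), with *Xist* as a measure of sex (green) and without control 1 and mutant 4 (orange). *Esr1* lies between 1.17 and 1.36 in these 4 fits (1.04 with the neuron score alone, not shown), and *Esrrg* goes from 0.80 to -0.28 when the scores are added.

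Other cell types of the dissected tissue were present in both genotypes. Hair cell markers summed to 227 to 290 CPM in controls and 199 to 288 CPM in mutants, and supporting cell markers to 8052 to 10430 and 7309 to 9133 CPM, so the labelled cochlear tissue carried its defining markers at more than 0 in every list. Markers of fibroblasts and mesenchyme summed to 10910 to 13350 CPM in controls and 10440 to 11710 in mutants. The sums are not scaled by gene length, so they do not give the share of each cell type. None of these markers was called by edgeR. Of the 9 macrophage markers 0 were higher in the mutants and 4 had an unadjusted p under 0.05, and of the 10 supporting cell markers 1 was higher and 3 had such a p, against 10.6% of all genes tested; their part in the values of the 7 genes was not tested. *Xist* exceeded 100 CPM in 2 of 6 controls and in 2 of 6 mutants, and with *Xist* as a covariate *Esr1* kept a log2 fold change of 1.34.

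Levels of the 7 genes were set against each other per kilobase of merged exons. In the controls the order of the mean levels was *Esrrb* (36.9 CPM per kb), *Esrra* (7.50), *Esrrg* (1.67), *Greb1* (0.892), *Esr2* (0.690), *Pgr* (0.331) and *Esr1* (0.103). The ranges of *Esrrg* and *Greb1* overlapped, as did those of *Greb1* and *Esr2*, and those of the other neighbours did not. Among 17529 tested genes with a length, the control level of *Esrrb* stood at the percentile of 93.5 and that of *Esr1* at the percentile of 5.43. In the mutants the order was the same. The mean level of *Esr1* was 0.261 CPM per kb and its range met that of *Pgr* (0.392). Its bottom place in the mutants depended on the length used: per kilobase of the longest transcript, mutant *Esr1* was at 0.562 CPM and mutant *Pgr* at 0.486 CPM. The range of *Esr2* (0.771) overlapped those of *Greb1* (0.852) and *Pgr*, while *Esrrg* (2.91) stood clear of *Greb1*.

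**Figure D4:**
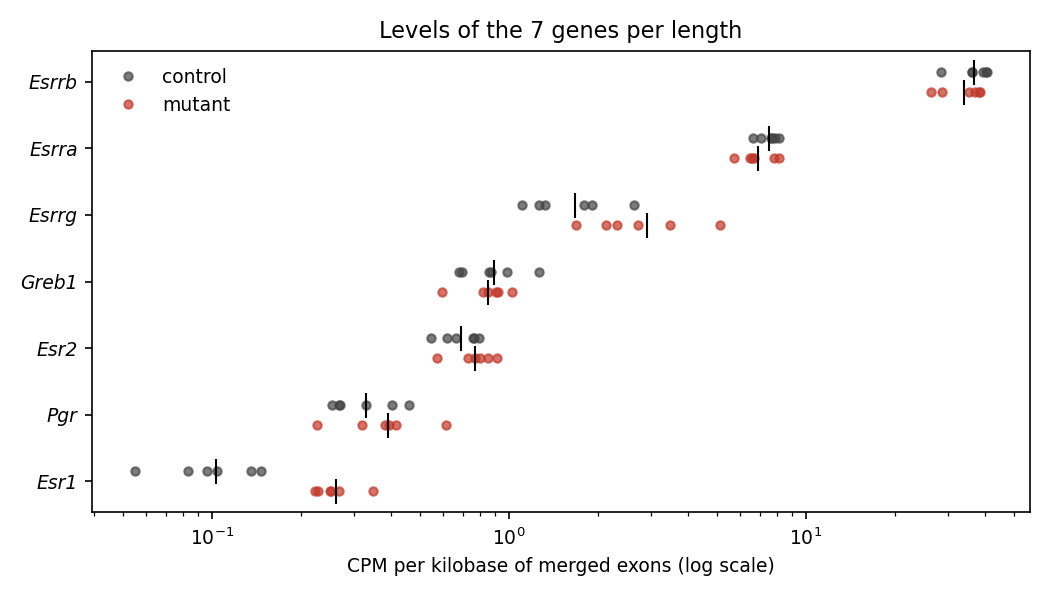
CPM per kilobase of merged exons (horizontal log axis) of the 7 genes in 6 control (grey) and 6 mutant (red) libraries, with means as black ticks. *Esrrb* is the highest gene, at a control mean of 36.9, and *Esr1* the lowest on this length, at 0.103 in controls and 0.261 in mutants, whereas per kilobase of the longest transcript mutant *Esr1* (0.562) lies above mutant *Pgr* (0.486).

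The libraries in which *Esr1* was high or low, after the mean of each genotype was removed, were followed most closely by *Npr3* (r = 0.889 over 12 libraries), *Nr3c2* (0.862), *Abi3bp* (0.851), *Efcab2* (0.847) and *Lancl3* (0.835). *Nr3c2* encodes the mineralocorticoid receptor, another steroid receptor, and *Npr3* a receptor that clears natriuretic peptides. Between genotypes these genes had log2 fold changes of 0.03 for *Npr3* and -0.12 for *Nr3c2*, against 1.34 for *Esr1*, and none of the 5 was called by edgeR (lowest adjusted p = 0.0783, for *Abi3bp*). *Esrrg* was followed by *Gpr155* (0.955), *Itgb8* (0.926), *Rap2a* (0.923), *Pdp1* (0.921) and *Camk4* (0.920), the last a calcium-dependent kinase of neurons. These correlations are descriptions, and the genes share the depth and tissue makeup of each library. Each set of 5, that of *Esrrb* included, holds the highest r among 14192 genes over 12 libraries. High values of r can arise from this choice alone, and whether they exceed those of chance was not tested.

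The wider estrogen pathway was examined in 5 gene lists, in which 67 of 74 genes could be tested. None was called by edgeR, DESeq2 or limma-voom, and 4 (5.97%) had an unadjusted edgeR p under 0.05, against 10.6% of all genes tested. Of 20 tested genes that estrogen induces in other tissues, 16 had a negative log2 fold change and 4 a positive one. Of all 18459 genes tested, 9056 were negative and 9403 positive. The median was -0.08 for the 20 genes against 0.00 for all genes. 3 of the 20 had an unadjusted p under 0.05, all lower in the mutants. Of all 18459 genes, 745 had such a p and were lower, and 1204 had one and were higher. Whether the 20 genes differ from all genes as a set was not tested. *Ctsd*, a lysosomal protease, had 950 ± 65.8 CPM in controls and 833 ± 96.5 CPM in mutants (log2 fold change -0.19, adjusted p = 0.400 by edgeR). *Ccnd1*, which encodes cyclin D1, differed by -0.26 on the log2 scale (edgeR adjusted p = 0.422), and *Ramp3*, a partner of calcitonin-family receptors, of -0.30 (edgeR adjusted p = 0.379).

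Of 22 receptor cofactors and chaperones, 1 had an unadjusted p under 0.05, *Med1*, a Mediator subunit that binds nuclear receptors (log2 fold change -0.15, edgeR adjusted p = 0.403), and the median was -0.02. *Fkbp5*, a chaperone partner induced by glucocorticoids, had the widest spread of this list relative to its mean in the mutants. It had 13.7 ± 2.01 CPM in controls and 21.1 ± 18.9 CPM in mutants, with a highest mutant value of 59.6 CPM. The difference was 0.62 on the log2 scale (edgeR adjusted p = 0.693), and *Fkbp4* was at -0.19 on the log2 scale (edgeR adjusted p = 0.536). Of the genes of estrogen synthesis and breakdown, *Cyp19a1*, which encodes aromatase, had from 0 to 2 reads in a library and was not tested, nor were *Hsd17b2* and *Sult1e1*. Among the 6 that were tested, *Cyp1b1* had a log2 fold change of 0.11 and *Hsd17b12* one of 0.05. The 17 partners and targets of the estrogen-related receptors had a median of 0.01. *Ppargc1a*, their main coactivator, had 35.8 ± 5.83 CPM in controls and 42.9 ± 7.64 CPM in mutants (log2 fold change 0.26, edgeR adjusted p = 0.495), *Ppargc1b* a log2 fold change of 0.19 and *Perm1* one of -0.11. The steroid receptor genes *Nr3c1* and *Nr3c2*, for glucocorticoids and mineralocorticoids, had log2 fold changes of -0.02 and -0.12.

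**Figure D5:**
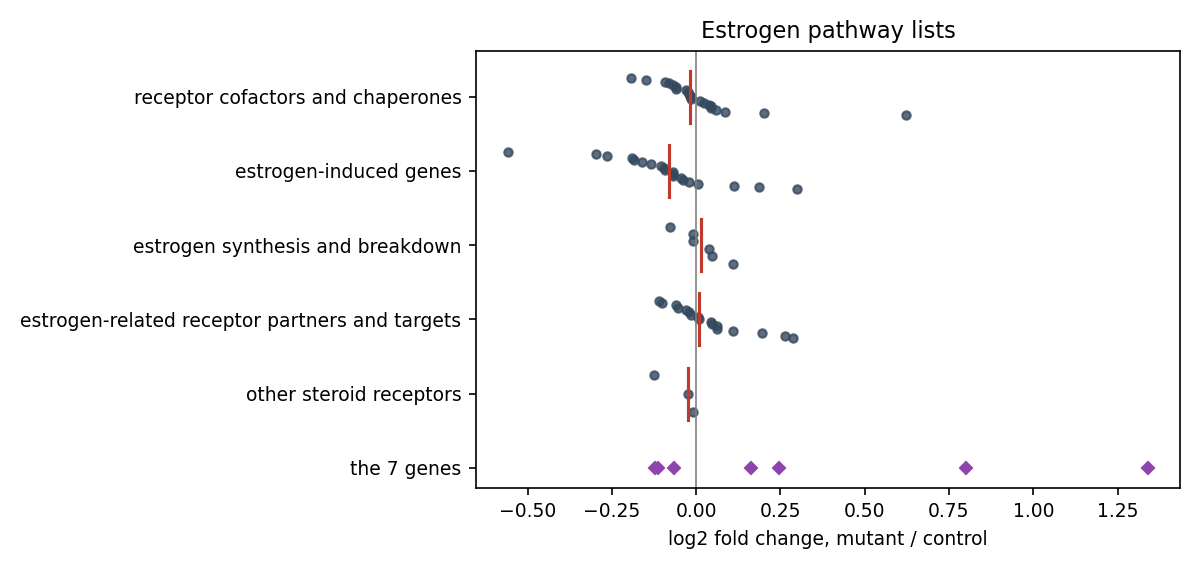
Log2 fold change of mutants against controls (horizontal axis) of each tested gene in 5 estrogen pathway lists (dots, medians as red bars) and of the 7 genes (purple). List medians lie between -0.08 and 0.02, and *Esr1* (1.34) and *Esrrg* (0.80) lie to the right of every list gene.

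Promoters were searched on both strands for GGTCANNNTGACC, the palindrome that estrogen receptors read, and for TCAAGGTCA, the extended site of the estrogen-related receptors, which share the letters GGTCA. The windows ran from 250 bases before to 50 bases after the RefSeq start sites of GRCm38.p6. The palindrome was present in 23 of 32851 promoters (0.07%) and the extended site in 139 (0.423%). Neither was present in the promoters of the 7 genes, or in those of the 17 estrogen-induced genes that had a promoter in the table, which says only that these letters are not in these windows.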

How the data were processed

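RNA from the cochlear tissue of 12 mice (RNA integrity 9.7 to 10) was sequenced as single-end reads of 100 nt. The submitters' processing notes name Trimmomatic 0.32, STAR 2.4.2a, HTSeq 0.9.1 and the GRCm38.p4 build; the annotation and strand setting are not given in the sources used here. The deposited table of counts gives whole reads for each gene symbol in each of the 12 libraries, with no scaling or pooling. A second deposited table holds the authors' DESeq2 comparison (mean, log2 fold change, standard error, statistic and p-values) and was not used here.

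Counts were fitted with edgeR 4.0.16 (quasi-likelihood F-test, robust, trimmed mean of M-values scaling, no covariate) over 18459 genes whose count averaged 5 or more, with Benjamini-Hochberg adjustment over all of them and a threshold of 0.05. The script was tested on simulated data. CPM used the scaled library sizes, and lengths came from merged exons of GENCODE M21. Relations within a genotype used log2 CPM with a prior count of 2 and two-sided exact permutation tests of the 6 libraries. With totals of 28498549 to 36134983 reads, *Esr1* rests on 26 to 163 reads a library, and reads without molecular identifiers are not independent molecules.

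Members, gene lists and marker lists were chosen with earlier results of these data known. The text names the 7 members, *Sox2*, *Jag1*, the 3 nearest tested genes on each side of *Esr1*, the 5 most alike genes of *Esr1*, *Esrrb* and *Esrrg*, and in each list the 3 largest fold changes at a mean count of at least 50, of which some are not reported here. The 11 marker lists all had genes tested. Those of melanocytes, bone cells, macrophages, endothelial cells and dividing cells had 6, 6, 9, 6 and 6 markers tested. In these lists 0 genes were called, against 0.190% of all genes tested. The markers at an unadjusted edgeR p under 0.05 numbered 1, 0, 4, 1 and 0, against 10.6% of all genes tested. Alternatives were other scalings, count filters, DESeq2 1.42.0, limma-voom (limma 3.58.1), a replicate block, covariates and omission of each library. The labels state no shared litter for equal replicate numbers. R 4.3.3, Python 3.11.15, SciPy 1.17.1 and matplotlib 3.10.9 were used.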

Additional observations from a re-analysis of the deposited data

Results flagged for a closer look

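In 18 groups of 6 values, 2 held a library set apart from the other 5 by a gap above Dixon's 95% critical value for 6 values, and chance sets apart about 5% of such groups. *Esr1* in mutant 4 had 4.76 CPM, where the other mutants had 3.03 to 3.66 CPM; mutant 4 also had the highest neuron score (6.04) and the highest *Pgr* value (5.23 CPM), and without it the log2 fold change of *Esr1* was 1.24. *Esrrb* in control 4 had 172 CPM, where the other controls had 219 to 246 CPM, and that library also had the lowest strial marginal cell score of the controls (7.32).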

How the results depend on the processing

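The number of genes called was 35, and it was 57 without a count filter, 619 with DESeq2, 19 with limma-voom, 23 with *Xist*, 1 with the neuron and Schwann cell scores, 2 with the neuron score alone and 21 without control 1 and mutant 4 (the last 2 chosen after the data were seen). It ran from 14 to 356 when a library was left out, the latter without mutant 5; it was 14 without control 2 or 6, 15 without control 5 or mutant 6, 17 without control 4 or mutant 2, 22 without control 3, 54 without mutant 1 and 66 without mutant 4. Higher genes made up 57.1% of the calls, 76.4% with DESeq2, 31.6% with limma-voom, 87.8% with the replicate block, 34.8% with *Xist*, 0% of the 1 and 2 calls with the scores, and 23.5% (without control 4) to 88.8% (without mutant 5) with a library left out. *Esrrg* turned to -0.28 with both scores, *Pgr* to -0.12 with the neuron score alone, and *Greb1* to 0.06 without control 6 and 0.02 without mutant 1. With a library left out, log2 fold changes ran from 1.21 to 1.45 for *Esr1*, 0.10 to 0.23 for *Esr2*, -0.17 to -0.07 for *Esrra*, -0.18 to -0.05 for *Esrrb*, 0.56 to 0.97 for *Esrrg*, 0.08 to 0.36 for *Pgr* and -0.13 to 0.06 for *Greb1*. Per kilobase of the longest transcript, control levels were 0.222 for *Esr1*, 13.2 for *Esrra* and 51.8 for *Esrrb*, and in the mutants *Esr1* (0.562) then lay above *Pgr* (0.486). Same-numbered mutants and controls correlated at -0.29 to 0.462 over 6 pairs. In 2 of them the mutant correlated best with the control of its own number, so the numbers were not taken as pairing. The replicate block gave 131 calls and an *Esrrg* log2 fold change of 0.77 (edgeR adjusted p = 0.0327), and the cause was not tested. At 26 to 62 reads, *Esr1* has the fewest reads of the 7 genes in the controls.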
